A study of Mus musculus with 9 samples.

Results

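A group of 10 genes of lysosomal protein breakdown was followed across the epithelial compartments of mouse tail skin: the cathepsins Ctsa, Ctsb, Ctsc, Ctsd, Ctse, Ctsh, Ctsl, Ctss and Ctsz, and the lysosomal membrane gene Lamp1. They were chosen by gene symbol, with earlier results of these data known. Their 10 symbols held 111 of the 146964 probe sets with a single gene symbol and 10 of the 14507 genes measured. All samples came from adult female wild-type mice of C57BL6/CBA background, matched for age, and were pieces of tail epidermis that had been pooled after dissection by hand. The groups were sebaceous gland (SG, n = 3), hair follicle (HF, n = 3) and interfollicular epidermis (IFE, n = 3), hybridised to 9 exon arrays. A gene's level is the median log2 signal of its probe sets on an array, and a difference between groups is on that log2 scale.

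The sample titles and the array names in the descriptions disagreed on the compartment for 9 of 9 arrays, and the groups here follow the titles. Markers of each compartment were set against them. The summed linear signal of 15 sebocyte genes was 29312 to 40185 in SG, 7533 to 11441 in HF and 4646 to 6663 in IFE, and the sum of 18 hair follicle genes was 12436 to 22271 in SG, 42140 to 62061 in HF and 4909 to 6289 in IFE. The sum of 9 genes of the suprabasal epidermis was 19492 to 22580 in SG, 18631 to 23612 in HF and 46104 to 56088 in IFE. Each list was thus highest in the compartment the titles give. SG also carried hair follicle signal above IFE, and HF carried sebocyte signal above IFE, most of all HF replicate 2 at 11441. Array medians lay between 176 and 234, and the arrays correlated at 0.921 to 0.977 within a compartment and at 0.846 to 0.930 between compartments. SG replicate 3, HF replicate 2 and IFE replicate 1 stood apart from their groups. IFE replicate 1 correlated at 0.953 and 0.952 with the other IFE arrays, which correlated at 0.977 with each other. Its median was 194, against 233 and 234 for those arrays. A whole pooled piece was measured, so fewer cells of a type and less RNA per cell cannot be told apart.

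Lysosomes are acidic organelles in which cells take apart proteins delivered by endocytosis and autophagy. Most cathepsins are cysteine proteases that are made as inactive proenzymes, sorted to the lysosome and activated by the low pH there; others are aspartic or serine proteases, and cystatins and some serpins restrain those that escape. In skin, lysosomal proteases take part in the final differentiation of keratinocytes, in hair follicle cycling and in antigen presentation, and sebocytes end by breaking down whole, in holocrine secretion.

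Factors of the Tfeb, Tfe3 and Mitf family bind the letters CACGTG in promoters of many lysosomal genes, so the starts of members are shown before their levels. RefSeq promoters on GRCm38.p6, each 250 bases before to 50 after a gene start, were listed for 7 of the 10 genes in 8 windows, with Ctsb, Ctse and Ctsh not among them. The letters CACGTG, which read the same on both strands, occurred in 4 of these 8 windows, 1 of the 2 Ctsa windows and those of Ctsd, Ctsl and Lamp1, and in 7.15% of all 32851 windows. The longer TCACGTGA, which contains it, occurred in 2 of the 8 windows and in 0.974% of all windows. The stretches below run from 100 bases before the start to 30 bases from it, 5′ to 3′ on the gene's strand, with CACGTG in capitals. In these stretches Lamp1 holds 4 copies, Ctsa 2 and Ctsd 1, and Ctss holds none in its whole window.
Ctsa, chr2:164833673-164833802, plus strand: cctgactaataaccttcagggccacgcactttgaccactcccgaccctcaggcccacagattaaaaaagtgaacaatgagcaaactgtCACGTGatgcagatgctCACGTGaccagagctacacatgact
Lamp1, chr8:13159061-13159190, plus strand: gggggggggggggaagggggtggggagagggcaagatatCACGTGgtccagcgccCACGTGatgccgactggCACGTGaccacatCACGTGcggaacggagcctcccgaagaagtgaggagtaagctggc
Ctsd, chr7:142387798-142387927, minus strand: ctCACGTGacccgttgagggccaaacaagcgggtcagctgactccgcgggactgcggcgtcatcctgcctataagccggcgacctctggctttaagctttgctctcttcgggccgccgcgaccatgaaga
Ctss, chr3:95526686-95526815, plus strand: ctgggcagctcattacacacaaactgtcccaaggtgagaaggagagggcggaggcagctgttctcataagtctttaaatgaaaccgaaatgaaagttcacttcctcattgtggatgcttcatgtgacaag
A match of letters is a description of the window and not a measured binding site. Of the genes with the letters, Ctsa and Lamp1 had their lowest mean in SG and their highest in IFE, while Ctsl and Ctsd had their highest mean in HF. Ctsd and Lamp1 passed the full threshold in no comparison. Genes with and without the letters were not compared.

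A gene counted as changed where its limma adjusted p was under 0.05 and its log2 difference was 1 or more in either direction. By that rule 2 of the 10 genes fell and 0 rose in SG against IFE, where 9.49% of all genes were called, 2.54% higher and 6.96% lower. In HF against IFE 2 rose and 1 fell, with 6.31% of all genes called, 2.96% higher and 3.36% lower. In SG against HF 1 rose and 3 fell, with 5.11% of all genes called, 1.81% higher and 3.3% lower. In all, 6 of the 10 changed in at least 1 comparison (background 13.9%), and 7 passed the limma F test over the compartments (background 24.5%). Of the 111 probe sets 53 (47.7%) changed in at least 1 comparison, beside 19.8% of all probe sets. The 3 comparisons share their samples, so their counts are not independent. Because the 10 genes were chosen with earlier results of these data known, the counts beside the background shares are no test of the group. Without SG replicate 3 and HF replicate 2 together, 2 genes fell in SG against IFE, 3 rose in HF against IFE (Ctse, Ctsl and Ctsz) and 4 fell in SG against HF (Ctse, Ctsl, Ctsc and Ctsh), and the Ctss calls were lost. IFE replicate 1 was kept in that fit. Leaving out IFE replicate 1 alone took the calls over all genes in SG against IFE from 1377 to 1752.

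The median difference of the 10 genes was -0.16 in SG against IFE, 0.41 in HF against IFE and -0.68 in SG against HF, beside -0.06, -0.07 and -0.02 over all genes. The first of these turned to 0.06 when the arrays were brought to one distribution of gene values. Groups did not overlap for 4 of the 10 genes in SG against IFE (34.9% of all genes), 9 in HF against IFE (32.8%) and 7 in SG against HF (29.3%).

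**Figure D1:**
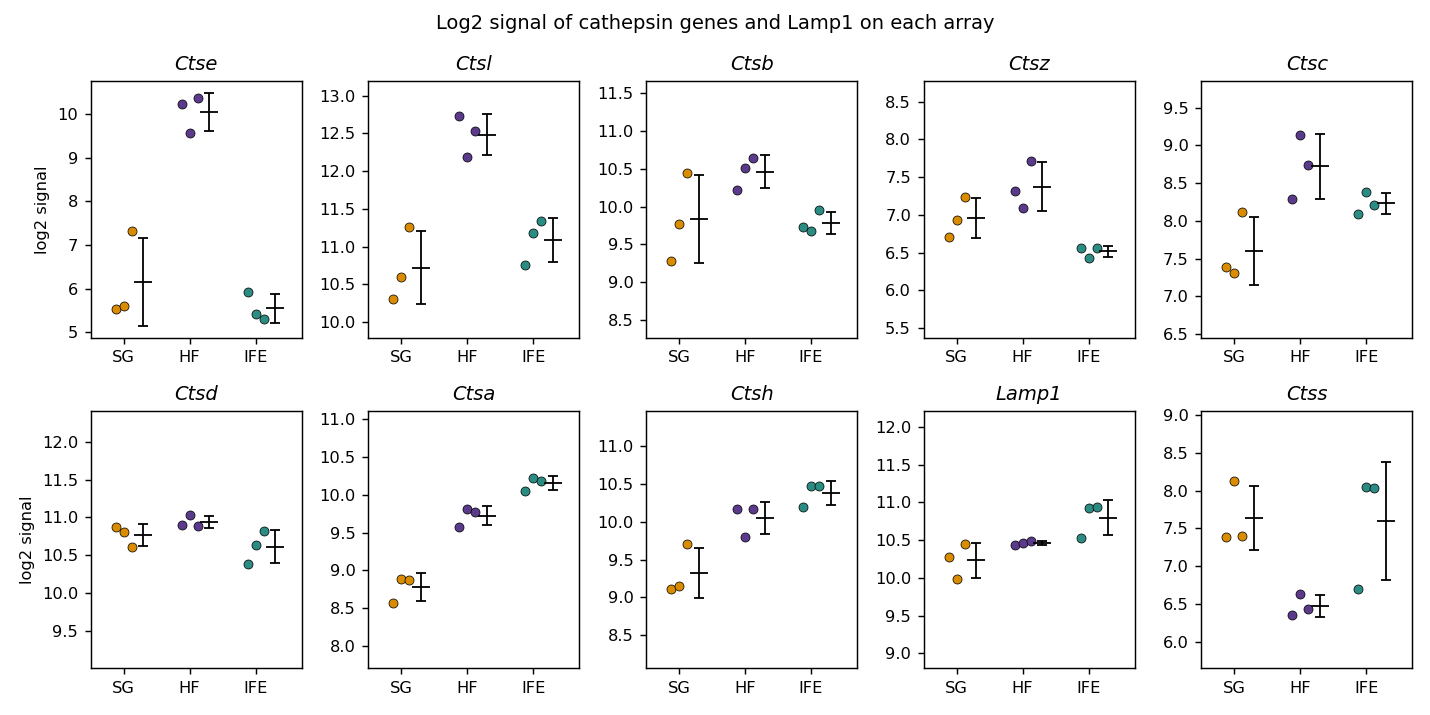
Log2 signal (vertical axis, a separate scale for each gene) of the 9 cathepsin genes and Lamp1 in SG, HF and IFE, left to right; points are the 3 arrays of a compartment, and the bars beside them are the mean and 1 SD. Ctse and Ctsl stand highest in HF, Ctsa and Ctsh lowest in SG, and Ctss lowest in HF, where its 3 arrays lie between 6.35 and 6.63.

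The aspartic proteases of the group are Ctse and Ctsd. Ctse encodes an aspartic protease of endosomes that is found in epithelia and immune cells. Its log2 signals were 5.54, 5.60 and 7.32 in SG, 10.24, 9.56 and 10.38 in HF, and 5.92, 5.42 and 5.30 in IFE. All 3 HF arrays were far above every other array, and SG replicate 3 lay above the rest of SG and IFE. Ctse rose 22.8-fold in HF against IFE, a difference of 4.51 ± 0.41 (SE, limma adjusted p = 3.9e-05). It was 15.0-fold lower in SG than in HF, at -3.91 (limma adjusted p = 0.000322). SG and IFE differed by 0.60 ± 0.41 (SE, limma adjusted p = 0.325), and by 0.02 without SG replicate 3. That array also had the highest hair follicle marker sum in SG, 22271 against 12436 and 15571 in the other SG arrays; the part of such material in the Ctse level was not tested.

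The 11 Ctse probe sets rose in HF against IFE without exception, by 2.17 to 6.63 with a median of 3.59 (background for probe sets 6.85%). The same 11 were lower in SG than in HF, by -5.34 to -1.67 (background 5.79%). None of them passed in SG against IFE. The genes nearest to Ctse over the 9 arrays, each centred on its own mean, were Krtap5-4 and Krt72, genes of the hair shaft and the inner root sheath, and Tchhl1, with root mean square differences of 0.29, 0.32 and 0.33.

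Ctsd encodes the main aspartic endopeptidase of the lysosome. Ctsd had log2 signals of 10.88, 10.81 and 10.61 in SG, 10.89, 11.03 and 10.88 in HF, and 10.38, 10.63 and 10.81 in IFE, so the SG and IFE arrays overlapped and HF lay just above IFE. No comparison passed, with 95% intervals of -0.22 to 0.53 for SG minus IFE, -0.05 to 0.70 for HF minus IFE and -0.54 to 0.20 for SG minus HF. Its 11 probe sets were all above 0 in HF against IFE, by 0.16 to 0.55, and none was called. Both aspartic protease genes were thus highest in HF by their means, Ctse beyond the threshold and Ctsd by less than the test resolved (limma F test adjusted p = 0.354).

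Among the cysteine proteases Ctsl changed most. It encodes a lysosomal endopeptidase, and mice with the furless mutation in this gene have disturbed hair cycles and a thickened epidermis. Ctsl had log2 signals of 10.31, 10.60 and 11.26 in SG, 12.72, 12.19 and 12.53 in HF, and 10.76, 11.17 and 11.33 in IFE. Every HF array exceeded every SG and IFE array, while SG and IFE overlapped. Ctsl was 2.62-fold higher in HF than in IFE, at 1.39 ± 0.26 (SE, limma adjusted p = 0.00405). It was 3.38-fold lower in SG than in HF, at -1.76 (limma adjusted p = 0.00155), and SG minus IFE was -0.37 with an interval of -0.93 to 0.19.

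Of the 11 Ctsl probe sets, 11 were above 0 in HF against IFE and 8 were called higher, while 10 were called lower in SG against HF. The brightest Ctsl probe set alone gave 0.65 in HF against IFE, and that call was then lost (limma adjusted p = 0.123). The nearest profiles were those of Fhod3, Jmy and Slc20a2, at root mean square differences of 0.15, 0.17 and 0.18.

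Ctsb encodes a cysteine endopeptidase that also acts as a dipeptidyl carboxypeptidase. It had log2 signals of 9.28, 9.77 and 10.45 in SG, 10.22, 10.51 and 10.65 in HF, and 9.73, 9.67 and 9.96 in IFE. SG overlapped both other groups, with an SD of 0.58, and HF lay above IFE on every array. The HF minus IFE difference of 0.67 (interval 0.11 to 1.24) did not pass (limma adjusted p = 0.118), although 13 of its 13 probe sets were above 0 and 4 were called higher. It passed at 1.00 after quantile normalization of the gene values (limma adjusted p = 0.0101) and at 1.04 from the brighter 50% of the probe sets (limma adjusted p = 0.0135). SG minus HF was -0.63 for the gene and did not pass (limma adjusted p = 0.167). Its 13 probe sets were all below 0 there, with a median of -1.10, and 4 were called lower.

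Ctsz encodes a carboxypeptidase that removes single residues. The log2 signals of Ctsz were 6.70, 6.93 and 7.23 in SG, 7.32, 7.08 and 7.72 in HF, and 6.56, 6.43 and 6.55 in IFE, so IFE lay below every other array and SG and HF overlapped. HF minus IFE was 0.86 ± 0.20 (SE, limma adjusted p = 0.0159), under the size threshold, and 1.00 without HF replicate 2 (limma adjusted p = 0.0138), when it was called. Of its 9 probe sets 8 were above 0 in HF against IFE, from -0.07 to 2.17, and 1 was called higher. The nearest profiles were those of Itga8, Sox4 and Kcne1, at root mean square differences of 0.12 to 0.13.

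Ctsc encodes dipeptidyl peptidase I, which activates serine proteases of immune granules, and its loss in humans causes a thickening of the skin of palms and soles with periodontitis. On the 9 arrays its log2 signals were 7.39, 7.30 and 8.12 in SG, 8.28, 9.14 and 8.74 in HF, and 8.10, 8.38 and 8.21 in IFE. HF exceeded SG on every array, and IFE lay between and overlapped both. Ctsc was lower in SG than in HF by -1.12 ± 0.26 (SE, limma adjusted p = 0.0174), a 2.17-fold difference. That call was lost without SG replicate 1 (-1.01, limma adjusted p = 0.0655), SG replicate 2 (-0.97, limma adjusted p = 0.0783), HF replicate 2 (-0.91, limma adjusted p = 0.068) or HF replicate 3 (-1.11, limma adjusted p = 0.0686). Its 12 probe sets were all below 0 in SG against HF, and 6 were called lower. In HF against IFE 2 of the 12 were called higher, at 1.92 and 1.67, well above the median of 0.53. These were the 2 dimmest of the 12, with log2 signals of 3.85 to 4.44 and 4.77 to 6.51 on the SG and IFE arrays. The profiles nearest to Ctsc were those of Fbp2, Nfatc2 and Kansl1, at root mean square differences of 0.18, 0.19 and 0.19.

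**Figure D2:**
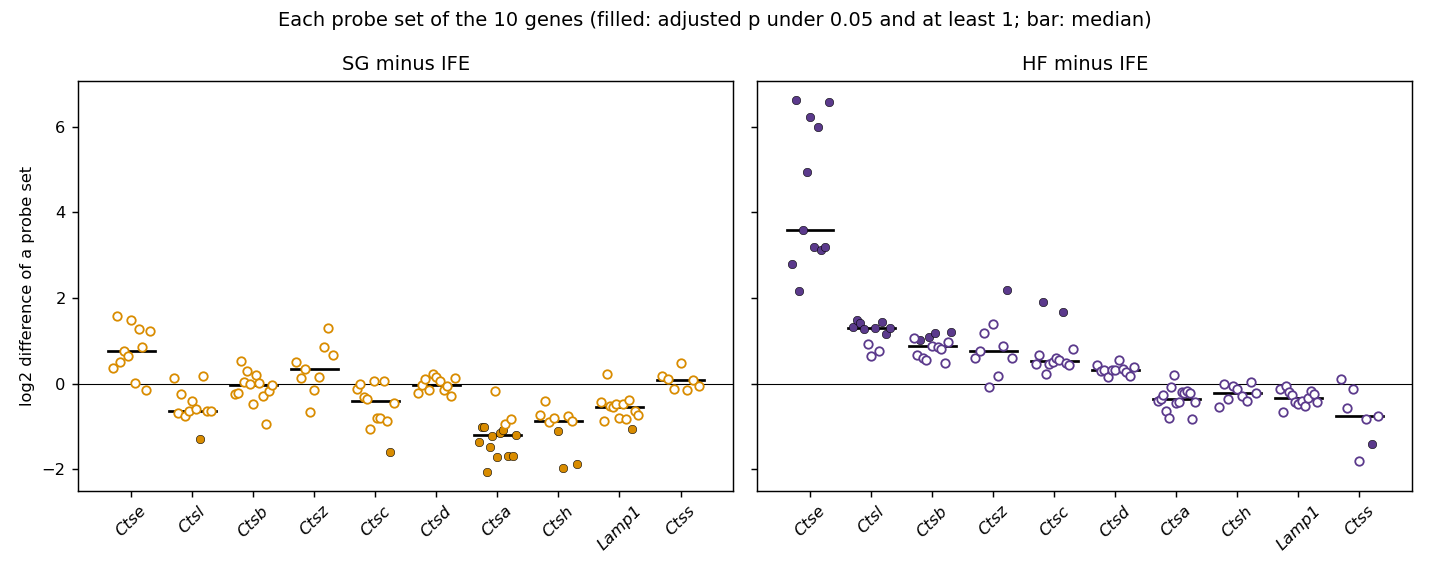
Log2 difference of every probe set of the 10 genes in SG minus IFE (left) and HF minus IFE (right); filled points passed the threshold over all probe sets and bars are medians over a gene's probe sets. All 11 Ctse probe sets and 8 of 11 Ctsl probe sets are filled in HF minus IFE, and 12 of 15 Ctsa probe sets in SG minus IFE; probe sets of a gene read the same RNA and are not replicates.

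Ctsh encodes a lysosomal aminopeptidase. Ctsh had log2 signals of 9.10, 9.15 and 9.71 in SG, 10.18, 9.80 and 10.17 in HF, and 10.20, 10.48 and 10.48 in IFE, with the compartments in that order and no overlap between any of them. Ctsh fell 2.09-fold in SG against IFE, at -1.06 ± 0.20 (SE, limma adjusted p = 0.00325). SG minus HF was -0.73 (limma adjusted p = 0.0436), under the size threshold, and HF minus IFE was -0.34 with an interval of -0.78 to 0.11. The 9 probe sets were below 0 in SG against IFE, from -1.98 to -0.42, and 3 were called. The SG against IFE call lies near the threshold: it was lost at -0.96 without SG replicate 1, at -0.98 without SG replicate 2, at -0.66 after quantile normalization of gene values and at -0.42 with the brightest probe set.

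The profiles nearest to Ctsh were those of Ptbp3, a splicing regulator gene, Lamp2, which encodes a membrane protein of the lysosome, and Pank3, at root mean square differences of 0.09, 0.11 and 0.12. Lamp2 fell by 1.06 in SG against IFE (limma adjusted p = 0.00123). Among the 10 genes the closest pair was Ctsa and Ctsh at 0.24, ahead of Ctsb and Ctsz at 0.27 and Ctsh and Lamp1 at 0.28.

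Ctss encodes an endopeptidase that stays active at neutral pH and cleaves the invariant chain from major histocompatibility complex (MHC) class II in antigen-presenting cells. Its log2 signals were 7.39, 8.13 and 7.40 in SG, 6.35, 6.63 and 6.43 in HF, and 6.70, 8.05 and 8.04 in IFE. HF was lowest on every array, and IFE replicate 1 lay close to HF and far from the other IFE arrays. Ctss was lower in HF than in IFE by -1.12 ± 0.33 (SE, limma adjusted p = 0.0479) and higher in SG than in HF by 1.17 ± 0.33 (SE, limma adjusted p = 0.0475). SG and IFE differed by 0.05, with an interval of -0.68 to 0.77.

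Both Ctss calls lie at the edge of the threshold. Each was lost in 6 of the 9 fits that left out 1 array: the HF against IFE call without SG replicate 1 (-1.12, limma adjusted p = 0.0517), any of the HF arrays (-1.20 to -1.06, limma adjusted p = 0.0764 to 0.153), IFE replicate 2 (-0.90) or IFE replicate 3 (-0.90). The SG against HF call was lost without SG replicate 1 (1.29), SG replicate 2 (0.93), any HF array (1.11 to 1.25) or IFE replicate 2 (1.17, limma adjusted p = 0.0501). Of the 7 probe sets 1 was called lower in HF against IFE and 2 were called higher in SG against HF.

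The profiles nearest to Ctss were those of Cd74, which encodes the invariant chain, Cwf19l2 and Mvd, an enzyme gene of cholesterol synthesis, at root mean square differences of 0.20, 0.25 and 0.27. Cd74 had log2 signals of 7.52, 8.14 and 7.71 in SG, 6.19, 6.84 and 6.51 in HF, and 6.92, 7.88 and 7.72 in IFE, with the same low IFE replicate 1. Of 12 genes of Langerhans and other antigen-presenting cells 3 fell and 0 rose in HF against IFE, with a median of -0.60, and 3 rose in SG against HF, with a median of 0.66. H2-Aa and H2-Eb1, chains of MHC class II, differed by -1.25 and -1.17 in HF against IFE and by 1.76 and 1.38 in SG against HF. The summed linear signal of the 12 genes was 2038 to 2534 in SG, 1077 to 1298 in HF and 1774 to 2267 in IFE, and no gene was listed at 0. The part of antigen-presenting cells in the Ctss difference was not tested.

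**Figure D3:**
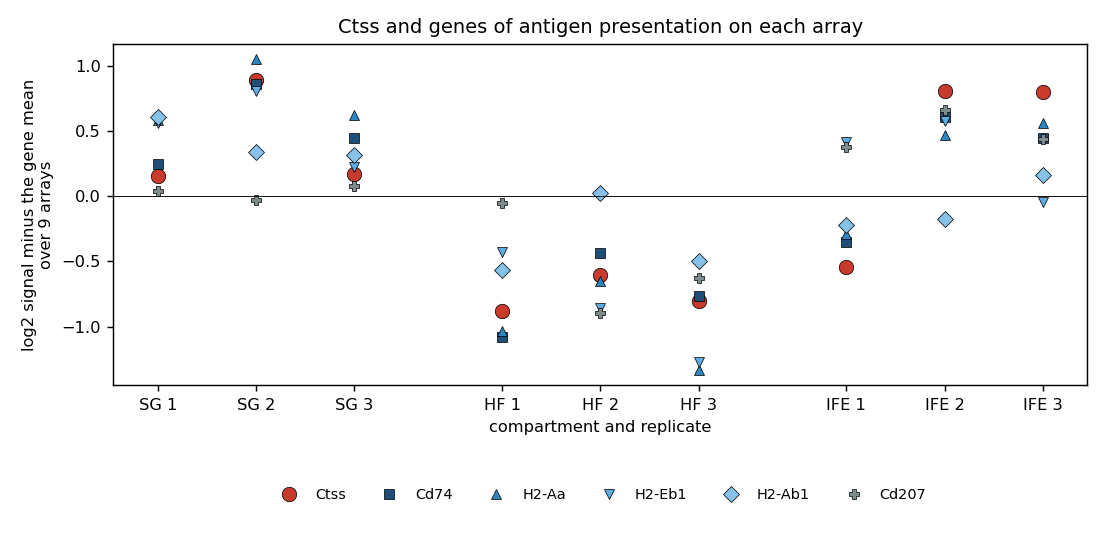
Log2 signal of Ctss, Cd74, MHC class II chains and Cd207 on each of the 9 arrays, as the difference from each gene's own mean (vertical axis, log2). Ctss lies below 0 on all 3 HF arrays and on IFE replicate 1, and Cd74 does the same.

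Ctsa encodes a serine carboxypeptidase, known also as protective protein because it holds lysosomal beta-galactosidase and neuraminidase in a stable complex. Ctsa had log2 signals of 8.57, 8.89 and 8.88 in SG, 9.58, 9.81 and 9.78 in HF, and 10.05, 10.23 and 10.19 in IFE. The compartments formed 3 separate levels, SG lowest and IFE highest. Ctsa fell 2.60-fold in SG against IFE, at -1.38 ± 0.17 (SE, limma adjusted p = 0.000185). SG minus HF was -0.94 (limma adjusted p = 0.00421), under the size threshold, and HF minus IFE was -0.43 (limma adjusted p = 0.116).

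All 15 Ctsa probe sets were below 0 in SG against IFE, from -2.07 to -0.19, and 12 were called lower (background for probe sets 15.5%). The fall was kept when any 1 array was left out, at -1.43 to -1.27. After quantile normalization of the gene values it was -0.96 with a limma adjusted p of 0.00102, past the test but short of the size threshold. The nearest profiles were those of Pik3ca, Pfkp and Esyt2, at root mean square differences of 0.09.

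Lamp1 encodes a heavily glycosylated protein that lines the lysosomal membrane and serves widely as its marker. Its log2 signals were 10.27, 9.98 and 10.45 in SG, 10.44, 10.46 and 10.48 in HF, and 10.53, 10.93 and 10.94 in IFE. IFE exceeded both other compartments on every array, and SG and HF overlapped. SG minus IFE was -0.56 ± 0.18 (SE, limma adjusted p = 0.0451), with 12 of 13 probe sets below 0, and HF minus IFE was -0.34 (limma adjusted p = 0.269), with 13 of 13 below 0. Neither reached the size threshold.

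**Figure D4:**
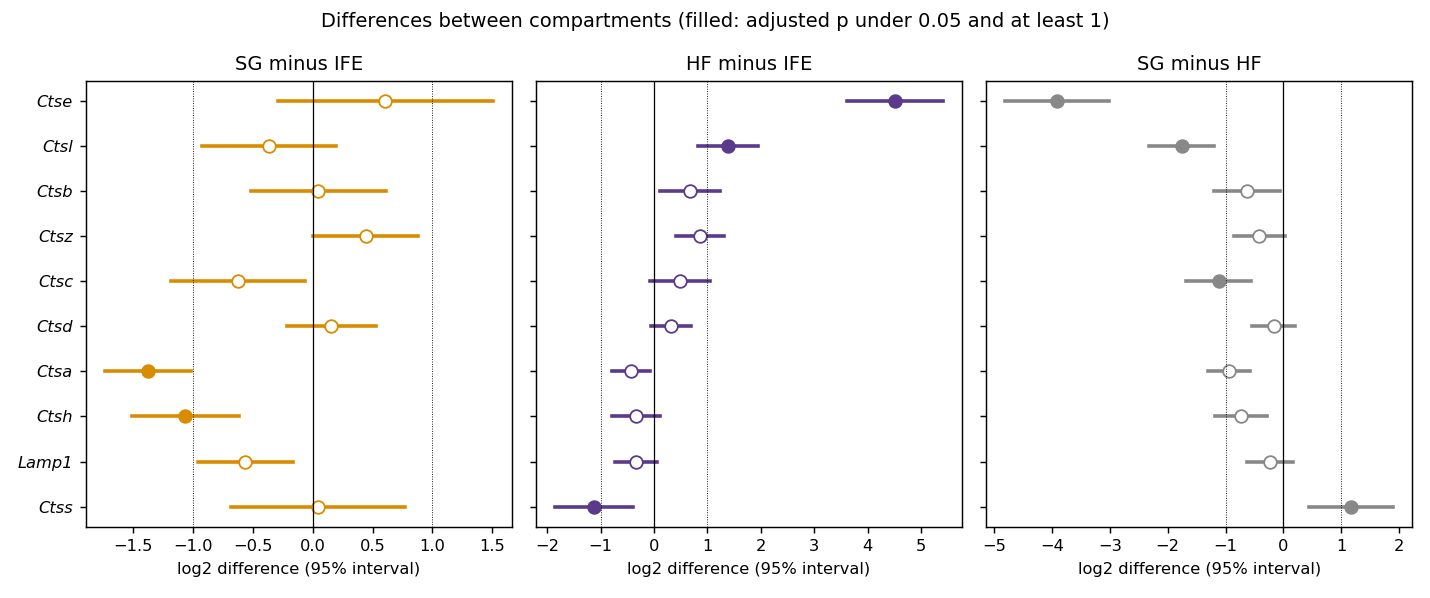
Log2 differences of the 10 genes (horizontal axis) in SG minus IFE, HF minus IFE and SG minus HF, with 95% intervals from limma; filled points have an adjusted p under 0.05 and a difference of at least 1, and dotted lines mark 1 in either direction. Ctse reaches 4.51 in HF minus IFE, and Ctsa and Ctsh are the filled points in SG minus IFE.

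A list of further lysosomal enzymes, most of them proteases, was counted in the same way. It also held Aga, Ctbs, Ppt1 and Ppt2, which do not encode proteases, and Ppt1 was counted again among the other hydrolases below. Over all genes 2.54% were called higher and 6.96% lower in SG against IFE, and 2.96% and 3.36% in HF against IFE. In SG against HF the shares were 1.81% and 3.3%. Of the 26 genes measured from the list, 0 rose and 2 fell in SG against IFE. In HF against IFE 1 rose and 0 fell, and in SG against HF 0 rose and 1 fell. Those that changed were Scpep1, a serine carboxypeptidase like Ctsa, at -2.14 in SG against IFE and -1.41 in SG against HF, Prcp, another serine carboxypeptidase, at -1.35 in SG against IFE, and Bace2, an aspartic protease, at 1.10 in HF against IFE. Scpep1 had log2 signals of 6.45, 7.37 and 7.66 in SG, 8.36, 8.63 and 8.70 in HF, and 8.38, 9.75 and 9.76 in IFE. Lgmn, the asparaginyl endopeptidase legumain, did not pass in SG against IFE (-0.40) or HF against IFE (0.37).

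A list of cystatins, serpins and other inhibitors held changes in both directions, with Cst6 as the only rise. Whether each gene listed acts on lysosomal cathepsins was not examined here. Over all genes 2.54% were called higher and 6.96% lower in SG against IFE, and 2.96% and 3.36% in HF against IFE. Of 17 measured among 33 listed, 1 rose and 4 fell in SG against IFE, 1 rose and 3 fell in HF against IFE, and 1 fell in SG against HF. Cst6, the secreted cystatin M/E of epidermis and follicle that inhibits cathepsin L and legumain, rose by 1.60 in SG and by 1.75 in HF, both against IFE. Its log2 signals were 12.39, 12.51 and 12.74 in SG, 12.86, 12.39 and 12.85 in HF, and 10.61, 11.04 and 11.22 in IFE. Cstb, a cytosolic cystatin, did not reach the size threshold in HF against IFE (0.89, limma adjusted p = 0.00774).

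Of 6 clade B serpins measured, 4 fell in SG and 3 fell in HF against IFE, and 0 rose in either. Serpinb1a (-0.39 and 0.13) and Serpinb6a (0.10 and -0.52) passed in neither comparison. Serpinb13, whose human protein inhibits cathepsin L, had log2 signals of 5.60, 5.97 and 6.42 in SG, 7.15, 7.76 and 7.30 in HF, and 10.04, 10.52 and 9.66 in IFE. It fell by 4.08 in SG and by 2.67 in HF, both against IFE, and was lower in SG than in HF by -1.41. Serpinb3d fell by 3.05 and 2.50, and Serpinb3c by 1.32 and 1.73, in SG and in HF against IFE. Serpinb8 fell by 1.08 in SG against IFE and did not reach the size threshold in HF against IFE (-0.86).

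The rest of the lysosome showed lower values in SG than in IFE in several groups, with a size that depended on how arrays were scaled. Of 30 other lysosomal membrane genes 6 fell and 0 rose in SG against IFE, with a median of -0.61, led by Cd68, a glycoprotein of the same family as Lamp1, at -1.74 and the chloride exchanger gene Clcn7 at -1.21. Of 20 genes of the proton pump that acidifies the lysosome 5 fell and 0 rose, with a median of -0.60, led by Atp6v1b2 at -1.36. Of 26 genes that sort enzymes to the lysosome 3 fell and 0 rose, with a median of -0.46: Gnptab, which starts the mannose 6-phosphate tag, at -1.39, Ap1b1 at -1.20 and Igf2r, a receptor of that tag, at -1.17. Over all genes 6.96% were called lower. Of 14 immediate early response genes, known to respond to handling of tissue, 10 fell and 0 rose in SG against IFE, and 6 fell and 1 rose in HF against IFE. The part of handling in the lysosomal differences was not tested.

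These SG against IFE counts shrank when arrays were brought to one distribution of gene values, to 2 of 30 membrane genes with a median of -0.37, 0 of 20 pump genes with a median of -0.24 and 2 of 26 sorting genes with a median of -0.20. The medians of these 3 groups stayed below 0 under each scaling tried. Before scaling the brighter 50% of all genes already had a median of -0.27 in SG against IFE. Over all genes the split of calls in SG against IFE was 368 higher and 1009 lower as deposited, 482 and 564 after quantile normalization of gene values, and 613 and 474 after quantile normalization of probe sets, where the median of all genes was 0.16. In HF against IFE the split was 429 and 487 as deposited and 495 and 354 after quantile normalization of probe sets, and in SG against HF it was 262 and 479 as deposited and 405 and 399 after it.

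In HF against IFE 6.31% of all genes were called, beside 9.49% in SG against IFE. Fewer of these lysosomal genes were called there as well: 1 of 30 membrane genes, 0 of 20 pump genes and 0 of 26 sorting genes. The difference between the comparisons was not tested. The membrane gene was Ctns, the lysosomal cystine exporter, which was higher in HF than in IFE by 1.01 and lower in SG than in HF by -1.93. Its log2 signals were 7.06, 7.02 and 7.17 in SG, 9.00, 9.01 and 9.05 in HF, and 7.88, 7.86 and 8.29 in IFE, so HF lay above every other array and SG below. Of 36 other hydrolases of sugars, sulfates and lipids 0 changed in SG against IFE, 1 rose in HF against IFE (Gm2a, an activator of ganglioside breakdown, at 1.20), and in SG against HF 1 rose (Acp5, at 1.05) and 2 fell (Asah1, an acid ceramidase, at -1.26, and Manba, at -1.04).

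Of 13 genes of the transcriptional control of lysosomes 0 rose and 3 fell in SG against IFE, 1 rose and 1 fell in HF against IFE, and 1 fell in SG against HF. Tfeb and Tfe3 changed in no comparison. Mitf, their relative and the master regulator of pigment cells, rose by 1.66 in HF against IFE and was lower in SG than in HF by -1.35; its log2 signals were 7.31, 7.75 and 7.67 in SG, 8.86, 8.83 and 9.08 in HF, and 7.23, 7.22 and 7.34 in IFE. Of 9 melanocyte markers, Mitf among them, 2 rose and 0 fell in HF against IFE, and the part of pigment cells in the Mitf difference was not tested. Fnip1, Rragc and Rragd, which act in nutrient sensing at the lysosome, fell by 1.37, 1.24 and 1.19 in SG against IFE, and Fnip1 fell by 1.00 in HF against IFE. Of 36 autophagy genes 1 rose and 3 fell in SG against IFE, 2 rose in HF against IFE and 2 fell in SG against HF; Optn, an autophagy receptor, was higher in SG by 1.44 and in HF by 1.48, both against IFE.

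Of 15 genes for substrates and partners of epidermal cathepsins, 1 rose and 4 fell in SG against IFE, 1 rose and 3 fell in HF against IFE, and 2 rose and 1 fell in SG against HF. Tgm3, a transglutaminase that is activated by proteolysis, fell by 1.94 in SG and by 1.14 in HF, both against IFE. Tgm1 fell by 2.57 in SG against IFE, and Lor, a protein of the cornified envelope, fell by 1.64 in SG and 1.65 in HF. Tgm3, Lor, Krt1 and Krt10 of this list also belong to the markers of suprabasal epidermis, of which 7 of 9 fell in SG and 6 of 9 in HF against IFE. Igf2r, Neu1, Glb1 and Cd74 were counted in other lists above too. Igf2r, given above as a sorting gene, was 1 of the 4 that fell in SG against IFE.

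**Figure D5:**
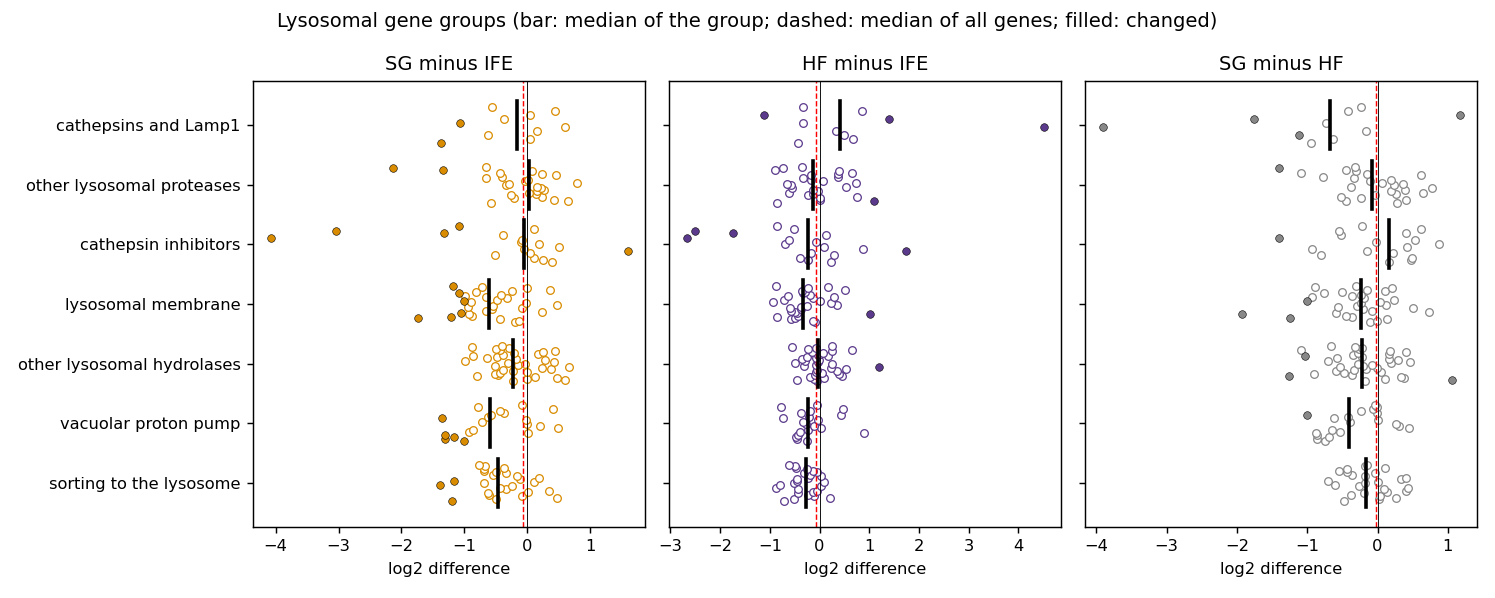
Log2 differences (horizontal axis) of the genes of 7 lysosomal groups in SG minus IFE, HF minus IFE and SG minus HF; filled points changed, black bars are group medians and the dashed line is the median of all genes. In SG minus IFE the medians of the membrane, proton pump and sorting groups lie at -0.61, -0.60 and -0.46, and the inhibitors spread from -4.08 to 1.60.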

How the data were processed

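Total RNA of 9 pooled samples was amplified, labelled with biotin and hybridised to exon arrays, per the labels' protocols. The authors deposited an intensity per probe set on a linear scale from 2.5 to 30815, with no detection calls used here. The submitters' processing notes name RMA, Affymetrix Power Tools and mm9 without versions, and how the linear values were made is not given in the sources used here. Of 154736 probe sets 146964 had 1 gene symbol in the platform annotation, 1060 had several and 6712 had none. Gene values were medians of log2 over a gene's probe sets, computed here with no pseudocount or further normalization; 1754 old symbols were updated through RefSeq names.

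One limma 3.58.1 model in R 4.3.3 (lmFit and eBayes) gave each compartment a mean, with Benjamini-Hochberg adjustment over all 14507 genes or all 146964 probe sets. It was tested on simulated data. Precision is limited by 3 arrays per compartment, and nothing in the labels says whether the pools came from separate animals beyond calling them biological replicates, so p-values measure the spread between these samples. The labels give no batch. The numbers in the array names run with the compartments, so whatever they stand for cannot be told apart from compartment.

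The 10 genes and all gene lists were chosen with earlier results of these data known. All 10 genes are described. From other lists up to 4 changed genes with the largest differences in a comparison are named, and, for the genes past the F test, the 3 others with the nearest profile. Lgmn, Cstb, Serpinb1a, Serpinb6a, Tfeb and Tfe3 were named as genes a sentence turned on. Alternatives changed the scaling, the summary of probe sets, the filter, the blocks, the model and the arrays included. No protein sequences were used here.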

Additional observations from a re-analysis of the deposited data

How the results depend on the processing

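With 3 arrays per compartment and no detection calls, differences near the threshold are poorly resolved and those of dim genes may be understated. Of the values of single genes under all alternatives, 643 kept both their direction and their side of the threshold, and 44 lost and 10 gained a call. Another 14, without a call, changed direction by any amount, and none that had a call reversed. The Ctse calls held in every alternative that tested the gene, at 2.79 to 4.76 in HF against IFE.

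The count in SG against IFE, 2 of 10, was 1 with the letter of the array name as a block, with median centring, with the brightest probe set and with the brighter 50% of probe sets. It was 0 after quantile normalization of gene values, after quantile normalization of probe sets (an alternative chosen after seeing the data) and at a log2 threshold of 1.5. The count in HF against IFE, 3, was 1 with the brightest probe set, without the dimmer 50% of genes, where Ctse, Ctss and Ctsz were not tested, and at the threshold of 1.5. The count in SG against HF, 4, was 2 under these 3 settings and with the letter block. The count past the F test, 7, was 3 with the letter block, 4 with the brightest probe set and 4 without dim genes. SG replicate 1, HF replicate 1 and IFE replicate 3 had letters that no other array shared. With the letter block these arrays added nothing to the differences, so its lower counts also reflect fewer arrays. Leaving out 1 array at a time gave 1 to 2 genes in SG against IFE, 2 to 3 in HF against IFE, 2 to 4 in SG against HF, 4 to 8 past the F test and 37 to 66 called probe sets, against 53 with all arrays. What caused the other changes in these counts was not tested.

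Samples of the same replicate number did not deviate together throughout (correlations of -0.02 to 0.23), so the number was not taken as a pairing. With the replicate block the counts were 2, 3 and 4, with 8 past the F test and 54 probe sets. Over all genes the F test called 3548, and 3990 with the replicate block. It called 5890 with array weights, 2305 when IFE replicate 2 was left out and 1360 with the letter block, and SG against HF called 741, against 392 with the letter block. The letter block rested on fewer arrays, as given above.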
